A study of Danio rerio with 28 samples.

Results

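The comparison described here is that of 17β-estradiol (E2) with its vehicle in zebrafish embryos at 2 days post fertilization (dpf), chosen as the arrays titled for this stage and treatment, which are 6 of the 28 arrays of the series. Wild-type embryos of the DZ strain were kept from 3 hours post fertilization (hpf) in 1 µM E2, diluted from a stock in DMSO, or in the vehicle, 0.1% DMSO, and were collected at 48 hpf. Each array was hybridized with RNA from 1 pool of 30 whole embryos, with 1 dye, and there were 3 pools with E2 and 3 with DMSO. The methods state that the medium was renewed every day, that clutches of several pairs of fish were divided into wells, and that the replicates came from different spawnings of different breeding pairs. An E2 pool and a DMSO pool with the same replicate number are called a pair. P-values weigh the mean difference between E2 and DMSO against how far that difference varied from pair to pair. That spread was estimated over the pairs of all stages together, so it is not that of the 3 pairs of 2 dpf alone. The remaining 22 arrays held embryos of 1, 3 and 4 dpf under the same 2 treatments.

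Estrogens act mainly through nuclear receptors, which in zebrafish are encoded by esr1, esr2a and esr2b and which regulate target genes through their DNA-binding domain. The best known targets in fish are the vitellogenins, the egg yolk precursors that the liver of females makes under estrogen, and brain aromatase (cyp19a1b), which radial glial cells of the brain express. At 2 dpf the embryo has a beating heart, a differentiating brain and retina, a liver bud and a large yolk. No gonad has yet differentiated. The RNA was extracted from whole embryos, so fewer cells of a type and less RNA per cell cannot be told apart. The embryos' tissues were represented on the arrays as labelled: the heart myosin gene myl7, the slow muscle myosin gene smyhc1, the lens crystallin gene cryaa, the epidermal keratin gene krt4 and the embryonic globin gene hbae1.1 were well above background, a flag that the image software sets for each spot, on all 6 arrays.

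Signals are given as log2 of the processed signal after quantile normalization, and a change is the E2 value less the DMSO value on that scale. Between 69.7% and 73.4% of the spots were well above background on the 6 arrays, whose median processed signals lay between 31.0 and 50.3, and 0 spots were saturated. The pairs were not alike. Both arrays of pair 1 lay on 1 slide, and so did both arrays of pair 3, whereas the E2 and the DMSO array of pair 2 lay on different slides with different scan dates. The change within a pair had an SD over all probes of 0.398 in pair 1, 0.942 in pair 2 and 0.438 in pair 3. A change of at least 1.4-fold in either direction was seen at 16048 probes in pair 2, compared with 5905 in pair 1 and 5813 in pair 3. Across probes, which are not independent replicates, the changes of 2 pairs correlated with r between -0.019 and 0.026, and between 0.044 and 0.11 over the 30108 probes that were well above background on all arrays of at least 1 group. The largest of the 3 changes was that of pair 2 at 259 of the 339 probes that passed the study thresholds, and their median absolute log2 change was 0.703, 1.66 and 0.694 in pairs 1, 2 and 3. Values of each pair are therefore given for the main genes. In a fit with a term for the slide of the E2 array of pair 2, 285 probes passed the study thresholds given next. In that fit 8 had an adjusted p under 0.05. All arrays of that scan date lay on that slide, so slide and scan date cannot be told apart.

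**Figure D1:**
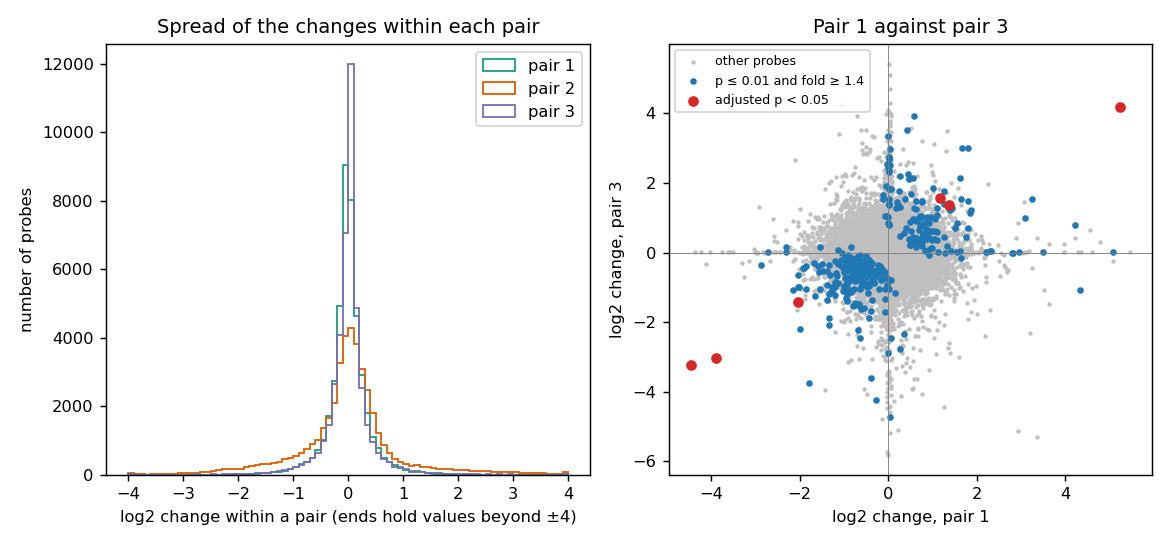
Left, number of probes by log2 change (E2 minus DMSO) within each of the 3 pairs of pools at 2 dpf, in bins of equal width. Right, log2 change of every probe in pair 1 (x axis) against pair 3 (y axis), with probes past the study thresholds in blue and those with an adjusted p under 0.05 in red. The curve of pair 2 is the widest, with an SD of 0.942, and fkbp5 and f13a1a stand far from the other probes in both of the remaining pairs.

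Of 43603 probes tested with limma, 6 had an adjusted p under 0.05, which is 0.0138% of all probes. They belonged to 4 genes. The fit left out the 3 dpf replicate 1 pair, and with all 28 arrays 3 probes had an adjusted p under 0.05. The probe of f13a1a and both called probes of vtg1 rose, and both probes of fkbp5 and the probe of klf9 fell. The thresholds of the study are an unadjusted p no greater than 0.01 and a difference of 1.4-fold or more either way. In the limma fit they were passed by 339 probes (0.777%), of which 138 were higher and 201 lower with E2. The study applied them to an analysis of variance after removing replicate effects, so 339 is not the study's own count. With the 75th percentile of each array in place of quantile normalization 415 probes passed, of which 295 were higher, so the split between higher and lower depended on the scaling. An unadjusted p of at most 0.01 alone was found at 492 probes, and 1% of 43603 probes is 436. Passing the study thresholds is therefore given below as a description, and "rose" and "fell" are kept for the 4 genes with an adjusted p under 0.05. Of the 339 probes 189 were well above background on all arrays of a group, a smaller share than the 30108 of all 43603 probes. The remaining 150 were dimmer. In all 3 pairs 313 of the 339 differed in the same direction. When pair 2 was left out, all 339 kept their direction, and 74 of them still passed. The 339 were chosen on the mean of all 3 pairs, so neither count of a shared direction is independent evidence.

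**Figure D2:**
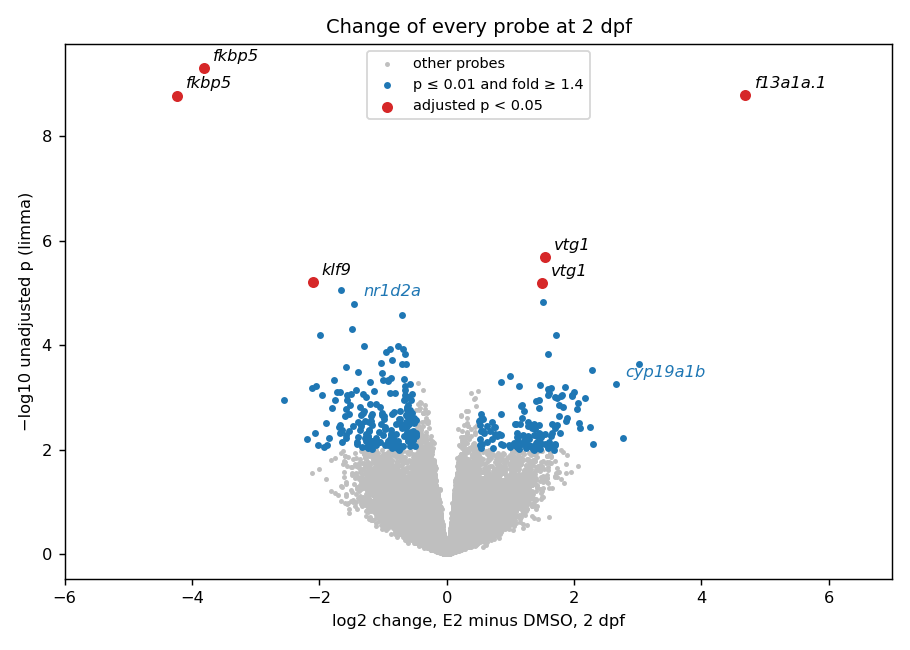
Log2 change of each of 43603 probes at 2 dpf (x axis, E2 minus DMSO) against minus log10 of the unadjusted limma p-value (y axis). The 6 red probes have an adjusted p under 0.05 and lie among the smallest p-values, with fkbp5 and f13a1a farthest from 0, and blue probes passed the study thresholds only.

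The gene with the smallest p-value was fkbp5, which encodes FK506 binding protein 5, a co-chaperone of steroid hormone receptors whose transcription glucocorticoids induce. With DMSO its signal was 10.18, 11.60 and 9.27 in pools 1, 2 and 3, and with E2 it was 6.29, 7.05 and 6.25. The lowest DMSO pool was above the highest E2 pool, and the pool of pair 2 was the highest of each group. The log2 change was -3.82 (SE 0.243, adjusted p = 2.17e-05), a level 14.1-fold lower with E2. A second probe of the gene gave 7.35, 8.72 and 6.91 with DMSO against 2.89, 3.68 and 3.69 with E2, and its change was -4.24 (SE 0.297, adjusted p = 2.42e-05). Within pairs 1, 2 and 3 the first probe changed by -3.89, -4.55 and -3.02. Without pair 2 its change was -3.45, with an adjusted p of 0.000476 in limma. With normexp background correction the changes of the 2 probes were -3.08 and -2.05, both with an adjusted p under 0.05.

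The second gene that fell was klf9, encoding a Krüppel-like zinc finger transcription factor that is also a direct target of glucocorticoid and thyroid hormone receptors. Its signal was 5.70, 7.04 and 5.11 in DMSO pools 1, 2 and 3, and 3.67, 4.18 and 3.68 in the E2 pools. The groups did not overlap, and again the pools of pair 2 were the highest. The log2 change was -2.11 (SE 0.294, adjusted p = 0.0466), a level 4.3-fold lower. Without pair 2 it was -1.73, and its adjusted p was 0.631. With normexp it was -0.698, with an adjusted p of 0.284.

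In the lists of genes described from here on, a gene was counted by its brightest probe. Every list was drawn up with results of these data known, so its counts are a description. By that probe 101 named genes passed the study thresholds, and 128 by any probe. Both genes belong to a list of 24 genes of the glucocorticoid response and stress axis, of which 22 were measured. In this list 6 genes were lower and 0 higher by the study thresholds, where 0.71% of all 10986 named genes were lower, and the median change was -0.13 in the list and 0.018 over all named genes. The other 4 members were named after their values were seen. They are hsd11b2, whose enzyme inactivates cortisol (-0.62), nfkbiaa, encoding an inhibitor of NF-κB (-0.55), lpin1a, encoding the phosphatidate phosphatase lipin 1 (-0.53), and tsc22d3, the glucocorticoid-induced leucine zipper gene (-0.49). Each of these 4 had an adjusted p between 0.57 and 0.824. At 2 dpf the study itself reports fkbp5, klf9, lpin1, hsd11b2 and nfkbiaa as altered, so the count of lower genes is no independent evidence. Without pair 2, 2 of the 22 members were lower by the thresholds, where 0.319% of all named genes were. The median of the list was then -0.09. Members that did not pass included per1a (-0.00), sgk1 (-0.09) and dusp1 (-0.06), which glucocorticoids induce in mammals. The glucocorticoid receptor gene nr3c1 changed by 0.16, the corticotropin-releasing hormone gene crhb by -0.04 and the pro-opiomelanocortin gene pomca by -0.12, and their p-values did not pass. Among 21 genes of heat shock and protein folding, fkbp5 was the only call, where 0.71% of all named genes were lower, and the median was -0.03.

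The largest rise was that of f13a1a (f13a1a.1 in the reference), which encodes the A subunit of coagulation factor XIII, the transglutaminase that crosslinks fibrin. With DMSO the probe read 0.66, 0.69 and 0.69 and was well above background on 0 of 3 arrays. With E2 it read 5.89, 5.36 and 4.87 and was well above background on 3 of 3. The 3 pairs changed by 5.23, 4.67 and 4.18, so every E2 pool exceeded every DMSO pool by far more than the spread within a group. Since the DMSO level has only an upper bound, the level was at least 8.65-fold higher with E2, where each DMSO signal was set to the lowest signal well above background on its array. The fitted log2 change was 4.69 (SE 0.327, adjusted p = 2.42e-05), and without pair 2 it was 4.70 with an adjusted p of 0.000748. With normexp, which compresses dim signals, it was 0.81, with an adjusted p of 7.62e-05. None of the other 9 measured genes of a list of coagulation factors and their regulators passed the study thresholds. Of all named genes 0.209% were higher and 0.71% lower, so 0 calls among 9 genes do not show that they were unaffected. Their changes lay between -0.28 and 0.29. The protein C gene proca, the member with the next smallest p-value, changed by 0.29 (SE 0.166).

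The vitellogenin gene vtg1 was the other gene that rose. Its brightest probe read 4.57, 4.85 and 4.24 in DMSO pools and 5.94, 6.57 and 5.61 in E2 pools, and it was well above background in every pool. The groups did not overlap, and the pairs changed by 1.37, 1.73 and 1.37. The log2 change was 1.49 (SE 0.209, adjusted p = 0.0466), a level 2.81-fold higher. A second probe changed by 1.54 (SE 0.194, adjusted p = 0.022), and 2 further probes named vtg1 changed by 1.59 (adjusted p = 0.317) and 1.3 (adjusted p = 0.824). Without pair 2 the first 2 probes both changed by 1.37, with adjusted p-values of 0.631 and 0.334. With normexp they changed by 0.627 and 0.615, with adjusted p-values of 0.667 and 0.861 in limma. Vitellogenin genes include closely similar copies, and whether other copies gave signal on these probes was not tested.

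The other vitellogenin genes on the array gave no call at 2 dpf. The probe of vtg2 was well above background in 0 pools, with a change of 0.24 (SE 0.471). Those of vtg3 and vtg4 were well above background in 1 DMSO pool each and in 1 and 0 E2 pools, with changes of 0.34 (SE 0.542) and -0.07 (SE 0.225). Only vtg5 besides vtg1 was well above background in all 6 pools. Its means were 6.45 with DMSO and 6.44 with E2, and its change was -0.00 (SE 0.183). For vtg3 the 3 pairs changed by 1.90, 0.14 and -1.03, so their direction was not shared.

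Brain aromatase (cyp19a1b), the enzyme that converts androgens to estrogens in radial glia, passed the study thresholds but not the adjusted one. Its brightest probe read 4.93, 4.58 and 4.65 with DMSO and 6.75, 7.73 and 7.66 with E2. The lowest E2 pool lay above the highest DMSO pool, and pair 1 changed the least (1.81, against 3.15 and 3.01 in pairs 2 and 3). The log2 change was 2.66 (SE 0.583, unadjusted p = 0.000551, adjusted p = 0.56), a 6.3-fold difference. The 4 other probes of the gene were well above background in 0 DMSO pools and in at most 1 E2 pool, and their changes lay between 0.98 and 1.73. The radial glia markers gfap (-0.03), fabp7a (-0.21), slc1a2b (-0.24), glula (0.05) and vim (0.17) did not pass. In the list of 10 measured radial glia genes the remaining call was epd, encoding the secreted brain glycoprotein ependymin. Of all named genes 0.209% were higher and 0.71% lower. The epd probe read 3.81, 5.53 and 3.96 in DMSO pools and 2.95, 1.57 and 2.88 in E2 pools. Its change of -1.97 (SE 0.459, adjusted p = 0.56) was set most by pair 2 (-3.96), and without that pair it was -0.97.

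Of the 13 measured estrogen marker genes, 3 (f13a1a, vtg1 and cyp19a1b) were higher by the study thresholds and 0 lower. Of all named genes 0.209% were higher. Without pair 2 the same number of markers was higher, where 0.182% of all named genes were. The list was drawn up with results of these samples known and is no independent evidence. Its median change was 0.24, and 0.043 without pair 2. The estrogen receptor genes were measured in every pool and none passed: esr1 changed by 0.44 (SE 0.506), esr2a by 0.29 (SE 0.316) and esr2b by 0.13 (SE 0.192). For esr1 the pairs changed by 0.28, 1.24 and -0.19, and without pair 2 its change was 0.04. The progesterone receptor gene pgr was well above background in 0 pools, and greb1 (0.24) and the cathepsin D gene ctsd (0.06), estrogen targets in mammalian cells, did not pass.

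**Figure D3:**
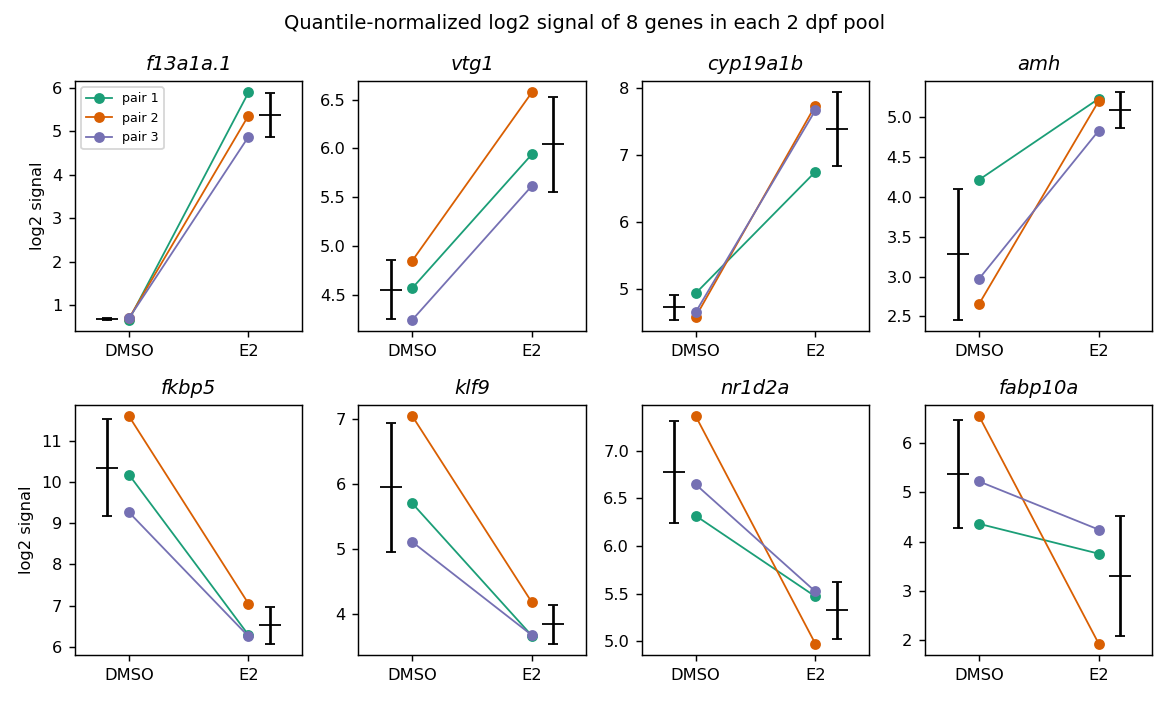
Quantile-normalized log2 signal (y axis) of 8 genes in the 3 DMSO and the 3 E2 pools of 2 dpf, with lines joining the pools of a pair and black marks for the group mean ± SD (n = 3). The 8 genes were picked with these values known. That the DMSO and E2 pools do not overlap for any of them is therefore a description and no evidence. The change of fabp10a was -4.62 in pair 2 against -0.61 and -0.98 in pairs 1 and 3.

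Among 18 measured genes of a list of liver genes, 5 were lower and 0 higher by the study thresholds, where 0.71% of named genes were lower. The list drew in part on genes the study names. At 2 dpf the study itself reports fabp10a, hpx, pnp4b and serpinf2 as altered, so the count is no independent evidence. The liver type fatty acid binding protein gene fabp10a, the usual marker of hepatocytes in zebrafish larvae, read 4.36, 6.55 and 5.22 with DMSO and 3.75, 1.93 and 4.24 with E2. Its change was -2.07 (SE 0.605, adjusted p = 0.79), but it came largely from pair 2, and without that pair it was -0.79 and did not pass. The antiplasmin gene serpinf2a read 1.47, 3.33 and 2.80 with DMSO and 0.51, 1.11 and 1.51 with E2, and it was well above background in 2 DMSO pools and 0 E2 pools. It was at least 1.065-fold lower with E2, and its fitted change was -1.49 (SE 0.253, adjusted p = 0.19).

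The hemopexin gene hpxa, which encodes the heme scavenger of plasma, had 4 named probes, all lower. Those past the study thresholds were named through the study's list of altered probes, so their agreement is no independent evidence. The brightest probe of hpxa changed by -1.19 (SE 0.316, adjusted p = 0.682 in limma), with -1.54, -0.98 and -1.05 in pairs 1, 2 and 3. Others changed by -0.90 and -1.17, and the latter did not pass the study thresholds. The fourth was well above background in 0 E2 pools and was at least 1.384-fold lower (fitted change -1.81). The purine nucleoside phosphorylase gene pnp4b read 7.60, 8.04 and 7.05 with DMSO and 5.67, 6.79 and 6.60 with E2. Its change was -1.21 (SE 0.3, adjusted p = 0.62 in limma), with -1.50 (SE 0.352) at a second probe. The urate oxidase gene uox, named after its values were seen, changed by -0.79 (SE 0.22, adjusted p = 0.735 in limma). In contrast the abundant plasma protein genes apoa1a (0.07), apobb.1 (0.07), rbp4 (0.12), ambp (-0.02) and cp (-0.08) did not pass. The median of the list was -0.11, and 0.019 without pair 2. In that fit 3 of the 18 genes were lower, where 0.319% of all named genes were. The signal summed over the list ranged from 128500 to 154700 in DMSO pools and from 140000 to 158200 in E2 pools, which overlap. The sum was taken on the linear scale, so the brightest members set it. It cannot show whether the dimmer genes of the list changed.

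Clock genes were also among the lower genes. The Rev-erb gene nr1d2a, a repressor in the negative limb of the circadian clock, had the smallest adjusted p of the genes outside the 4 above that the naming rule chose. It read 6.32, 7.36 and 6.65 with DMSO and 5.47, 4.98 and 5.52 with E2, and the groups did not overlap. The change was -1.45 (SE 0.222, adjusted p = 0.0773), or 2.74-fold lower, with -0.85, -2.39 and -1.12 in the 3 pairs. A second probe changed by -0.89 (SE 0.207). Its relative nr1d1 changed by -0.97 (SE 0.28), but by -0.02 in pair 1, and it did not pass without pair 2. In all 3 of 24 measured clock genes were lower, where 0.71% of all named genes were, and 0 higher, the third being tefb (-0.62, named after its values were seen), an activator of the PAR bZIP family. The period genes per1b (-0.13), per2 (-0.18) and per3 (-0.08) and the core activators clocka (0.03), bmal1a (0.11) and bmal1b (0.07) did not pass. The median of the list was -0.09, and 2 genes were lower without pair 2, when 0.319% of all named genes were.

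Genes of neural and sensory tissue gave few calls. The photoreceptor genes crx, a homeobox transcription factor gene, and rcvrna, a recoverin gene, were lower, which is 2 of the 17 measured genes of their list, where 0.71% of all named genes were lower, and the other 15 did not pass by their brightest probe. A dimmer probe of the phosphodiesterase gene pde6c, named after its values were seen, passed in the opposite direction (2.08, SE 0.577), with 0.06, 4.34 and 1.84 in the 3 pairs. The pools of crx read 9.96, 11.66 and 11.84 with DMSO and 8.91, 11.21 and 11.42 with E2, so that the groups overlapped while every pair was lower by 0.42 to 1.05. The change was -0.64 (SE 0.17, adjusted p = 0.679), and a second probe gave -0.67 (SE 0.145). For rcvrna it was -0.52 (SE 0.163), and a second probe gave -0.17 (SE 0.245). The neuropeptide Y gene npy was among the largest differences, with 3.80, 3.15 and 4.505 in DMSO pools against 2.88, 0.48 and 3.32 in E2 pools, a change of -1.59 (SE 0.423, adjusted p = 0.682). Without pair 2 it was -1.05 and did not pass, nor did the brighter probe of npy (-0.66, SE 0.31). No gene of the list of neurons and transmitters passed by its brightest probe, the smallest p-values being those of gad2 (-0.40), the GABA synthesis gene, and elavl4 (-0.52), a neuronal RNA binding protein gene.

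Anti-Müllerian hormone (amh), which in fish acts in the gonads, was the only call among 15 measured gonad and germ cell genes, where 0.209% of all named genes were higher. It read 4.22, 2.66 and 2.97 with DMSO and 5.23, 5.20 and 4.83 with E2, well above background in every pool. Its change was 1.81 (SE 0.425, adjusted p = 0.56), or 3.5-fold higher, and 1.44 without pair 2, when it did not pass. Other genes among the 12 largest differences upward were vipr1b, a receptor gene for vasoactive intestinal peptide (1.89), ifnphi1, a type I interferon gene (1.19), zgc:153169 (1.07), smarca1, an ISWI chromatin remodeler gene (0.88), LOC799082 (0.85), slc18b1, a vesicular polyamine transporter gene (0.76), gpr158b (0.75) and rxraa, a retinoid X receptor gene (0.73). All 8 had an adjusted p between 0.7 and 0.827. For vipr1b the 3 pairs changed by 4.22, 0.67 and 0.78, so 1 pair set its size, and a second probe gave 0.58 (SE 0.72). Other probes also disagreed elsewhere: the brighter probe of zgc:153169 gave -0.27 (SE 0.207), the brighter one of ifnphi1 0.65 (SE 0.251), and 3 others of smarca1 gave 0.26, 0.51 and -0.54.

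The largest differences downward also held cyp2r1, encoding a vitamin D 25-hydroxylase, which read 5.22, 5.60 and 5.05 against 3.97, 3.17 and 4.04. The groups did not overlap, the change was -1.56 (SE 0.367, adjusted p = 0.56), and its other probes gave -0.86 and -1.01. The serine protease gene prss60.1 (-1.53), trim35-27 (-1.47) and zgc:161973 (-1.43) completed the 12. For trim35-27 the pairs changed by -0.36, -3.29 and -0.75, and its change without pair 2 was -0.55, while its 2 other probes gave -0.62 and -0.13.

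Of the 26 lists of genes, 13 held no call by the brightest probe of a gene. These were the lists of steroid synthesis, pancreas and gut, neurons, sterol synthesis, Rh transporters and ionocytes, embryonic hemoglobins and erythroid cells, hatching gland, heart, lens, pigment cells, epidermis, proliferation, and estrogen breakdown and xenobiotics. Their 194 members measured changed by -1.17 to 0.66, with list medians between -0.09 and 0.20. Of all named genes 0.209% were higher and 0.71% lower, so 0 calls in lists of this size do not show that their genes were unaffected. In 3 of these lists another probe of a member, looked up after the values were seen, passed and was lower: srd5a2a, a steroid 5α-reductase gene (-0.93, SE 0.202), ddc, the dopa decarboxylase gene (-1.68, SE 0.39, well above background in 1 pool), and ugt1a1, a glucuronosyltransferase gene (-0.55, SE 0.144). Among the first genes of these lists were the steroidogenic acute regulatory gene star (-0.12), the insulin gene ins (-0.37), the neuronal gene elavl3 (-0.04), hmgcs1 of the sterol pathway (-0.63), the ammonia transporter gene rhcga (-0.39), the hatching enzyme gene he1.1 (0.24), the melanin synthesis gene dct (-0.04), pcna (0.13) and the xenobiotic monooxygenase gene cyp1a (0.30). The remaining lists held 1 or 2 calls each, where 0.209% of all named genes were higher and 0.71% lower. The calls were nr0b2a (0.55) among 10 genes of the yolk syncytial layer and ctsbb (-1.21, well above background in 0 pools) among 15 myeloid genes. They were desmb (1.1, well above background in 0 DMSO pools) among 19 muscle genes, and rxraa and nr0b2a among 25 nuclear receptors.

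**Figure D4:**
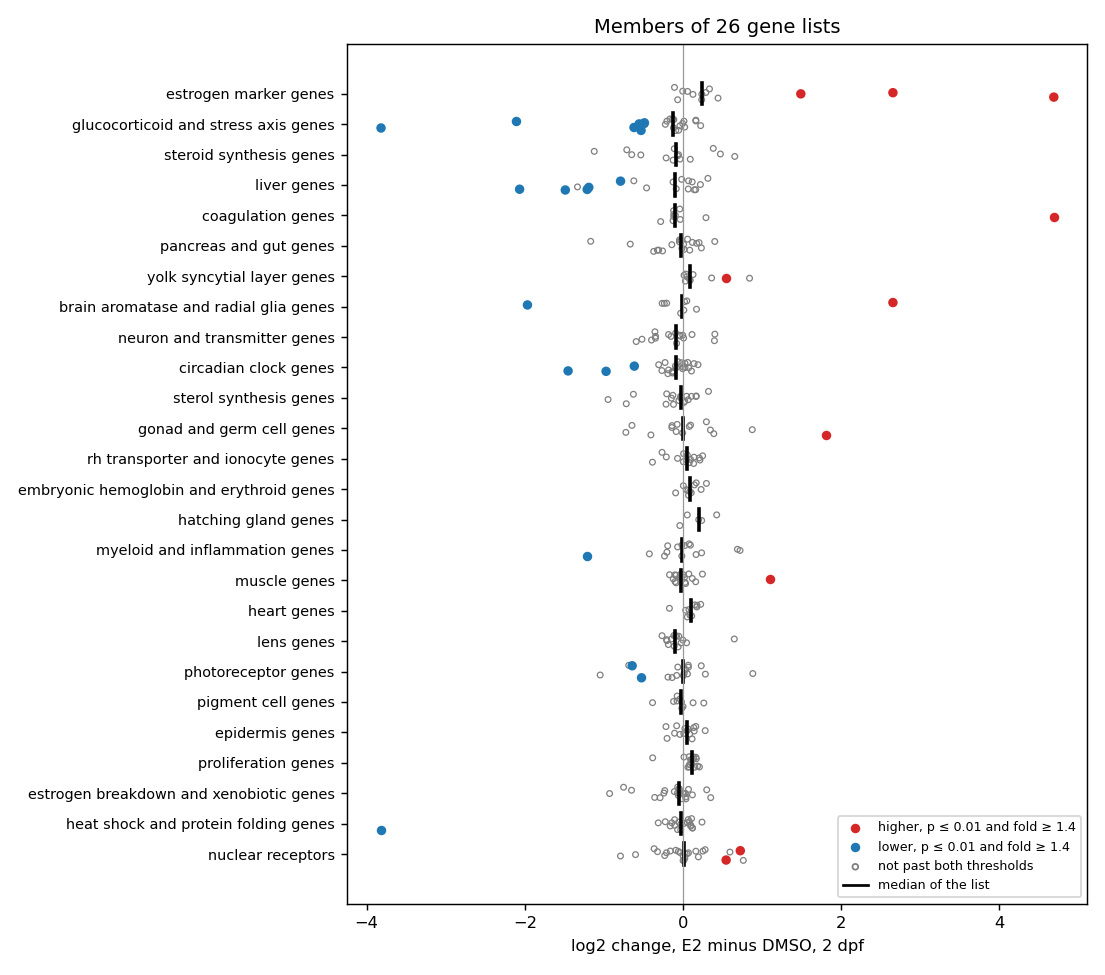
Log2 change at 2 dpf (x axis, E2 minus DMSO) of each measured member of 26 gene lists (rows). Filled points passed the study thresholds, higher in red and lower in blue, open points did not, and black bars are list medians. Most members lie near 0, and f13a1a and fkbp5, the points farthest out, each stand in 2 lists. The list of estrogen markers holds 3 higher members of 13 and that of the glucocorticoid axis 6 lower of 22. Of all named genes 0.209% were higher and 0.71% lower, and the lists were chosen with results of these data known.

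The E2 effect at 2 dpf was compared with the mean of the effects at 1, 3 and 4 dpf in the same fit. Each stage had DMSO arrays of its own, but the stages shared slides. The slide of the 2 dpf E2 array of pair 2 also held the replicate 2 E2 arrays of 1 and 4 dpf. It held the replicate 2 DMSO array of 3 dpf as well, and the partners of all these arrays lay on another slide. At 18 probes (0.0413%) the 2 dpf effect differed from that of the other stages with an adjusted p under 0.05, and 10 of these were named. At 2 probes the effect at 2 dpf was above the mean of the others. One was that of f13a1a, which differed by 2.46 (SE 0.374, adjusted p = 0.0414), where its changes were -0.32 at 1 dpf, 2.90 at 3 dpf and 4.11 at 4 dpf. It rested on DMSO pools of which 0 were well above background at 2 dpf, and 0 probes were above the other stages with all 28 arrays, with a replicate block of 4 levels over them or with dim probes left out. The other was coch (1.71, adjusted p = 0.0415), the cochlin gene, named after its values were seen, whose probe was well above background in only 1 of 6 pools at 2 dpf.

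At 16 probes the effect at 2 dpf was below that mean. Both probes of fkbp5 were among them, with differences of -3.25 (adjusted p = 0.000217) and -3.66 (adjusted p = 0.000472). The first probe changed by 0.30 at 1 dpf, by -1.79 at 3 dpf (adjusted p = 0.0148) and by -0.20 at 4 dpf (adjusted p = 0.895), so the 2 dpf fall was the largest of the 4. The changes of klf9 had the same order (0.11, -2.11, -0.998 and -0.02 from 1 to 4 dpf), but its difference had an adjusted p of 0.235, and that of nr1d2a, with -0.21, -0.45 and -0.13 at 1, 3 and 4 dpf, one of 0.551. The other 14 probes were higher with E2 at 4 dpf by 5.55 to 10.4, and their changes at 2 dpf lay between -0.77 and 1.72. The named ones were 4 probes of vtg1 and the probes of vtg3 and vtg4. For the brightest vtg1 probe the changes were 1.21, 1.49, 3.58 and 9.11 from 1 to 4 dpf, and for vtg4 they were -0.08, -0.07, 2.55 and 10.4. For cyp19a1b they were 0.66, 2.66, 5.10 and 6.74, and its difference had an adjusted p of 0.998. For amh they were 0.59, 1.81, 1.19 and 1.67, also with an adjusted p of 0.998.

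**Figure D5:**
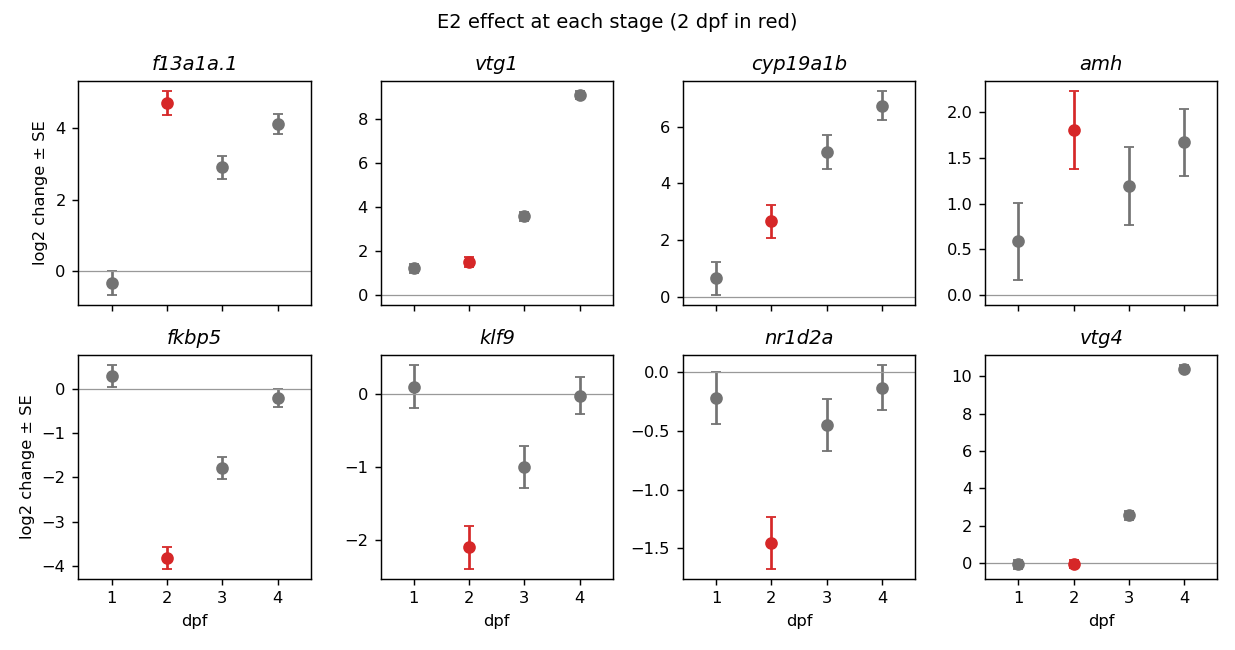
E2 effect (y axis, log2 change ± SE from the fit) of 8 genes at 1, 2, 3 and 4 dpf (x axis), with 2 dpf in red. The fall of fkbp5 was largest at 2 dpf. The change of klf9 was also lowest at 2 dpf, but its difference from the other stages had an adjusted p of 0.235 in limma. The vtg1 change of 1.49 at 2 dpf was smaller than 3.58 at 3 dpf and 9.11 at 4 dpf, and vtg4 changed by -0.07 at 2 dpf.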

How the data were processed

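Single-dye Agilent zebrafish arrays were hybridized and scanned at a core facility, per the methods. The deposited intensity of each spot is the processed signal on a linear scale, which the authors' image software made by background and spatial trend subtraction and which was not normalized between arrays. Log2 values were computed here from these deposited signals. The submitters' processing notes name Agilent Feature Extraction 11.0.1.1, while the file headers name another version and another scanner model than the methods. Per the file headers the probe annotation is of an older genome build, so no coordinates are given.

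Control spots and outlier spots were left out, signals were log2 transformed and quantile normalized in limma 3.58.1 (R 4.3.3), and replicate spots of each probe were averaged. The fit took 26 arrays, without the 3 dpf replicate 1 pair, whose E2 array was known from earlier results of these data to stand apart, with the pair as a block, an E2 effect per stage, and trend and robust moderation. The fit left 9 residual degrees of freedom. The E2 array of 4 dpf replicate 4, with 529 outlier spots and 58.1% of spots well above background, was kept. P-values were adjusted by the Benjamini-Hochberg method over 43603 probes. Same-numbered pools deviated together from their group means (r over 0.1 in 13 of 13 pairs, 0.617, 0.28 and 0.466 at 2 dpf), so numbers were taken to pair them. At 2 dpf pairs 1 and 3 each shared a slide and pair 2 did not. In pairs 1 and 3 a shared spawning and a shared slide therefore cannot be told apart.

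Names came from RefSeq accessions (15163 probes) and, for 591 probes, from the study's list of altered probes, which favours altered genes: 33 of the 101 named genes past the study thresholds were named that way. Among them were klf9, vtg1, nr1d2a, hpxa and cyp2r1. Agreement between probes of a gene that were named that way is no independent evidence. A gene was counted by its brightest probe over the 6 arrays. Genes were named if a probe had an adjusted p under 0.05, if among the 12 largest differences each way past the study thresholds, in all 3 pairs and well above background in a group, if first in a list or among its 2 smallest p-values, or if estrogen markers. Members and lists were chosen with earlier results of these data known. Lists named for an organ or cell type drew in part on genes the study names. The normexp alternative used median spot signals with an offset of 50. The number of arrays limits the precision.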

Additional observations from a re-analysis of the deposited data

Results flagged for a closer look

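The E2 effect at 2 dpf differed from the mean of the effects at 1, 3 and 4 dpf, with an adjusted p under 0.05 in limma, at 10 named probes. The difference was -3.25 and -3.66 at the 2 probes of fkbp5 and 2.46 at the probe of f13a1a.1. It was 1.71 at coch, -3.07, -3.14, -3.20 and -3.38 at 4 probes of vtg1, -4.40 at vtg3 and -4.35 at vtg4. The probes of f13a1a.1 and coch were well above background in 0 DMSO pools of 2 dpf, and those of vtg3 and vtg4 in 2 and 1 of the 6 pools.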

How the results depend on the processing

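The number of probes past the study thresholds (339) was 130 with all 28 arrays, 79 with the 6 arrays of 2 dpf alone, 55 after normexp, 186 with dim probes left out and 73 in the methods' analysis of variance. With a replicate block of 4 levels, fitted to all 28 arrays, it was 85, and with no replicate block in place of the pair 163. With a term for the slide of the E2 array of pair 2 it was 285. Leaving out 1 pair gave 182 (pair 2) to 743 (pair 3), and 689 without pair 1. The number with an adjusted p under 0.05 (6) was 3 with all 28 arrays, 3 with the block of 4 levels, 3 with no block, 3 without trend and robust moderation, 12 with array weights, and 4 to 17 without 1 pair. It was 0 with the 6 arrays alone and in the methods' analysis of variance, where 1179 and 1053 probes had an unadjusted p under 0.05. The number that differed from the other stages (18) was 7, 8, 11 and 8 with all 28 arrays, the block of 4 levels, dim probes left out and plain moderation, and 8 to 20 without 1 pair. The cause of these moves was not tested. The adjusted p of f13a1a.1 and of both fkbp5 probes was under 0.05 in 13 of 15 alternatives, and their directions held in 15 of 15. It ranged from 5.21e-07 to 0.98 for f13a1a.1 and from 8.13e-06 and 2.53e-06 to 0.98 for the fkbp5 probes, while that of klf9 was under 0.05 in 5 of 15 (0.0112 to 1) and those of vtg1 in 4 and 6 of 15 (0.00842 to 1). Among values of named probes that passed in the main fit, 172 no longer passed the study thresholds under an alternative and 0 changed sign. The 1382 values of all named probes include those of probes that had not passed, so they are not the base of that count.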

Other observations

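Beside the genes chosen by rule, several well measured genes differed in all 3 pairs at 2 dpf and were named after their values were seen. The phosphoinositide 3-kinase regulatory subunit gene pik3r3a changed by -0.70 (SE 0.112, adjusted p = 0.115). The suppressors of cytokine signalling socs1a (-0.69) and socs3a (-0.69), the growth arrest gene gadd45ba (-0.66), the oxytocin gene oxt (-1.03) and the heme oxygenase gene hmox1a (-0.51) were lower, and none had an adjusted p under 0.05.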
